A study of Mus musculus with 8 samples.

Results

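The genes analyzed here encode the proteasome, the protease complex that degrades ubiquitin-tagged proteins, and were read from RNA sequencing of the brain cortex of normal and high fat diet fed mice. A protein-coding gene was taken when its symbol began with Psma, Psmb, Psmc, Psmd, Psme, Psmf or Psmg, which gave 46 of the 13996 genes with values, 12531 of them protein coding. Both groups were male C57BL/6 mice, 16 weeks old, with 4 mice on a conventional diet (normal) and 4 mice fed for 8 weeks with a diet of 60% fat by weight (high fat diet, HFD mice). The rRNA-depleted RNA of the cortex of each mouse gave 1 stranded library, and the RNA integrity number of every sample was given as above 9. No genetic change and no drug was part of either group, so diet was the only labelled difference. Levels are FPKM (sequenced fragments scaled by the length of the transcript and by the mapped total), which can be compared between genes of different length.

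The proteasome is built from a barrel, the 20S core, and a cap, the 19S regulatory particle. Rings of alpha subunits form the gates of the core and rings of beta subunits hold its proteolytic sites. The cap has a base with a ring of ATPases, which unfold substrates and open the gate, and a lid, which removes ubiquitin before a substrate enters. Interferon induces alternative catalytic beta subunits, which replace the constitutive ones to form the immunoproteasome, a form known for making peptides for MHC class I and in brain known mainly from glia. In neurons the proteasome is known for its part in synaptic protein turnover.

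By these roles the 46 genes comprised 7 alpha ring genes, 7 constitutive beta ring genes, 2 inducible beta genes, 6 base ATPases, 3 other base subunits, 8 lid subunits, 4 activators, 1 inhibitor, 4 chaperones of core assembly and 3 chaperones of cap assembly. The last gene, Psmc3ip, shares only the name and encodes a protein of meiotic recombination. All 46 genes averaged 1 FPKM or more without a 0 in any mouse, so all 46 were tested. The inducible subunit Psmb9, the testis subunit Psma8, the thymus subunit Psmb11 and the Psme2 copy Psme2b were not found among the rows used and were not analyzed here.

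The cortex samples carried different amounts of RNA marking other brain regions, and these marker sums are given first because they moved with diet. The summed FPKM of 7 striatum marker genes lay between 214.1 and 401.6 in normal mice and between 69.8 and 79.7 in HFD mice, and 7 of 7 were lower. The oligodendrocyte sum lay between 2112.2 and 3484.6 in normal mice and between 1461.8 and 2029.7 in HFD mice, with 8 of 8 markers lower. The cerebellum sum was 26.3, 257.1, 343.2 and 95.5 in normal mice 1 to 4 and 17.7 to 23.4 in HFD mice, with 4 of 6 tested markers lower. The granule cell marker Gabra6, which was not tested because it was listed at 0 in HFD mouse 1, was at 1.7, 46.5, 61.7 and 12.2 FPKM in normal mice 1 to 4 and at 0.1 to 0.2 FPKM in the other HFD mice. Markers of cortical projection neurons were higher in 5 of 7 cases, with sums of 347.6 to 505.3 against 522.7 to 625.4. Blood markers were lower in 5 of 5 cases with overlapping sums (239.2 to 479.7 against 199.1 to 247.4), and choroid plexus markers in 3 of 6 (343.6 to 728.8 against 21.2 to 942.3). General neuron markers and microglia markers had 0 of 8 genes each past the threshold, astrocyte markers 2 lower and 1 higher of 7, and endothelial markers 3 lower and 1 higher of 8. The sum of FPKM over all genes ranged from 562431 (HFD mouse 2) to 639142 (HFD mouse 1). In tissue RNA, fewer cells of a type and less RNA per cell cannot be told apart.

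The promoters of 5 genes are shown first, those of 3 genes that fell in HFD mice (Psma2 of the alpha ring, Psmc6 of the ATPase ring and Psmd12 of the lid) and those of both genes that rose (Psmb10 and Psmd11). Each runs from 250 bases before to 50 bases after the RefSeq start on GRCm38.p6, 5′ to 3′ on the strand of the gene. Capitals mark matches, on either strand, to any of 6 motifs that are described with the motif counts. The windows are chr13:14612992-14613291 (+) for Psma2, chr14:45329574-45329873 (+) for Psmc6, chr11:107479278-107479577 (+) for Psmd12, chr8:105938343-105938642 (-) for Psmb10 and chr11:80428365-80428664 (+) for Psmd11.
Psma2: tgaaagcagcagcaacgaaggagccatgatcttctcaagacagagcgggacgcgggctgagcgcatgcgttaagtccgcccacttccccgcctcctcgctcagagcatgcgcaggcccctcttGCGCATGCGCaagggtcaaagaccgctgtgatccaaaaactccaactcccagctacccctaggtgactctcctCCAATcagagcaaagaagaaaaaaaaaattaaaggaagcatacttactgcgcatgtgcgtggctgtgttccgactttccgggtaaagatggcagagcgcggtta
Psmc6: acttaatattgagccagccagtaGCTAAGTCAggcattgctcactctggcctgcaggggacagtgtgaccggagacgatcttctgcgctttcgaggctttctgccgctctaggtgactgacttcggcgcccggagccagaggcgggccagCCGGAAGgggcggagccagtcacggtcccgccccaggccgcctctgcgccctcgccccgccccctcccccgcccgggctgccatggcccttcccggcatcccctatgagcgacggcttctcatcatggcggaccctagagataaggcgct
Psmd12: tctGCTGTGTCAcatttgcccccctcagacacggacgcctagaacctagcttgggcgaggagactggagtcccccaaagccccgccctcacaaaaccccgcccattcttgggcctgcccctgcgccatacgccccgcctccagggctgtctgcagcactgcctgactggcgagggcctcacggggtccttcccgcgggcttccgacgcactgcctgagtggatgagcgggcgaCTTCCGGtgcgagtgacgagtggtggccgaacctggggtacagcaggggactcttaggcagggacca
Psmb10: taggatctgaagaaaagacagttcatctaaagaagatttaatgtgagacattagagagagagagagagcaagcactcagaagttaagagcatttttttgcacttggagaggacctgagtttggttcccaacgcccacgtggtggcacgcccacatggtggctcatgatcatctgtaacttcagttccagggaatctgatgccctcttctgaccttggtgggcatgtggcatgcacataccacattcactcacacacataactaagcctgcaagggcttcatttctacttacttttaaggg
Psmd11: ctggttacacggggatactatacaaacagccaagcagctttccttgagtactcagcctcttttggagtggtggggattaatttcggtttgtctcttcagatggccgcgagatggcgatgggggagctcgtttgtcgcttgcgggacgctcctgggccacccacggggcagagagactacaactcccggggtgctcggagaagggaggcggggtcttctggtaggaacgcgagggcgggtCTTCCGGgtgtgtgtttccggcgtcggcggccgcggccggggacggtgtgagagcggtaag

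Most proteasome genes had lower levels in HFD mice, by small amounts. Of the 46 genes, 24 fell and 2 rose, Psmb10 and Psmd11 (limma on log2(FPKM + 0.1), Benjamini-Hochberg adjusted p below 0.05 over 13982 genes), and 20 did not pass. Of all genes tested, 15.3% were lower and 17.7% were higher, against 52.2% lower among the proteasome genes. Among the 6892 genes that averaged 10 FPKM or more, which is nearer to the level of most subunits, 19.8% were lower and 19.3% higher. The log2 fold change of 40 of 46 genes was below 0, with a median of -0.15 and a range of -0.38 to 0.37, whereas the median of all genes tested was 0.003 and 49.4% of them were below 0. The changes of the 24 genes that fell were between -8.91% and -23.3%. Percent changes of single genes, here and below, were taken from the log2 fold change and not from the printed means. No proteasome gene passed the adjusted threshold with a change over 1.5-fold (0 of 46), a size that 7.13% of all genes reached, while 30 of the 46 (65.2%) had an unadjusted limma p below 0.05, as did 44.3% of all genes.

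The values of the diets did not overlap for 20 genes that were lower and 2 that were higher, against 14.7% and 17.2% of all genes. The summed FPKM of the 46 genes was 2117 ± 43.4 in normal and 1913 ± 51.4 in HFD mice (SD, n = 4 each), a change of -9.67%. The median coefficient of variation of a gene within a diet was 4.71% in normal and 5.11% in HFD mice. As each library came from 1 mouse, the p-values set the diet difference against the spread between mice of the same diet. In limma the spread of each gene was drawn toward a variance trend fitted over all genes tested. The count of genes that fell dropped to 13 (28.3%) without normal mouse 2, without HFD mouse 2 or without HFD mouse 3. In these fits 10.5%, 10.7% and 12.2% of all genes were lower. Of the 26 called genes, 13 (11 lower, 2 higher) passed in all 8 fits with a mouse left out. With the FPKM of every mouse scaled to the same sum, 9 were lower and 2 higher, and 9.79% of all genes were lower. Without the variance trend 14 were lower and 2 higher, and 13.7% of all genes were lower.

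With the mean log2 level of the cerebellum markers as a covariate, 0 of 46 genes passed in limma, and 338 of all genes passed. Of the 46, 36 were below 0 on the log2 scale, and 17 (37.0%) had an unadjusted p below 0.05, against 21.9% of all genes. With the oligodendrocyte markers, which were chosen as a covariate after the data were seen, 0 of 46 genes and 8 of all genes passed, 34 proteasome genes were below 0 and 10 (21.7%) had an unadjusted p below 0.05, against 14.8% of all genes. With the striatum markers 0 of 46 and 0 of 13982 genes passed, 26 proteasome genes were below 0 and 1 (2.17%) had an unadjusted p below 0.05, against 2.08% of all genes, while the median standard error over all genes grew from 0.084 to 0.431. Striatum, oligodendrocyte and cerebellum marker sums each separated the diets without overlap. For the cerebellum the gap was narrow, with 26.3 in normal mouse 1 against at most 23.4 in HFD mice. These amounts and diet cannot be told apart in 8 mice. In the order cerebellum, striatum and oligodendrocytes, the log2 fold change of Psma2 was -0.34, -0.11 and -0.28 and that of Psmd11 was 0.23, 0.14 and 0.24. That of Psmc6 was -0.30, -0.14 and -0.40 and that of Psmd14 was -0.32, -0.01 and -0.38.

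**Figure D1:**
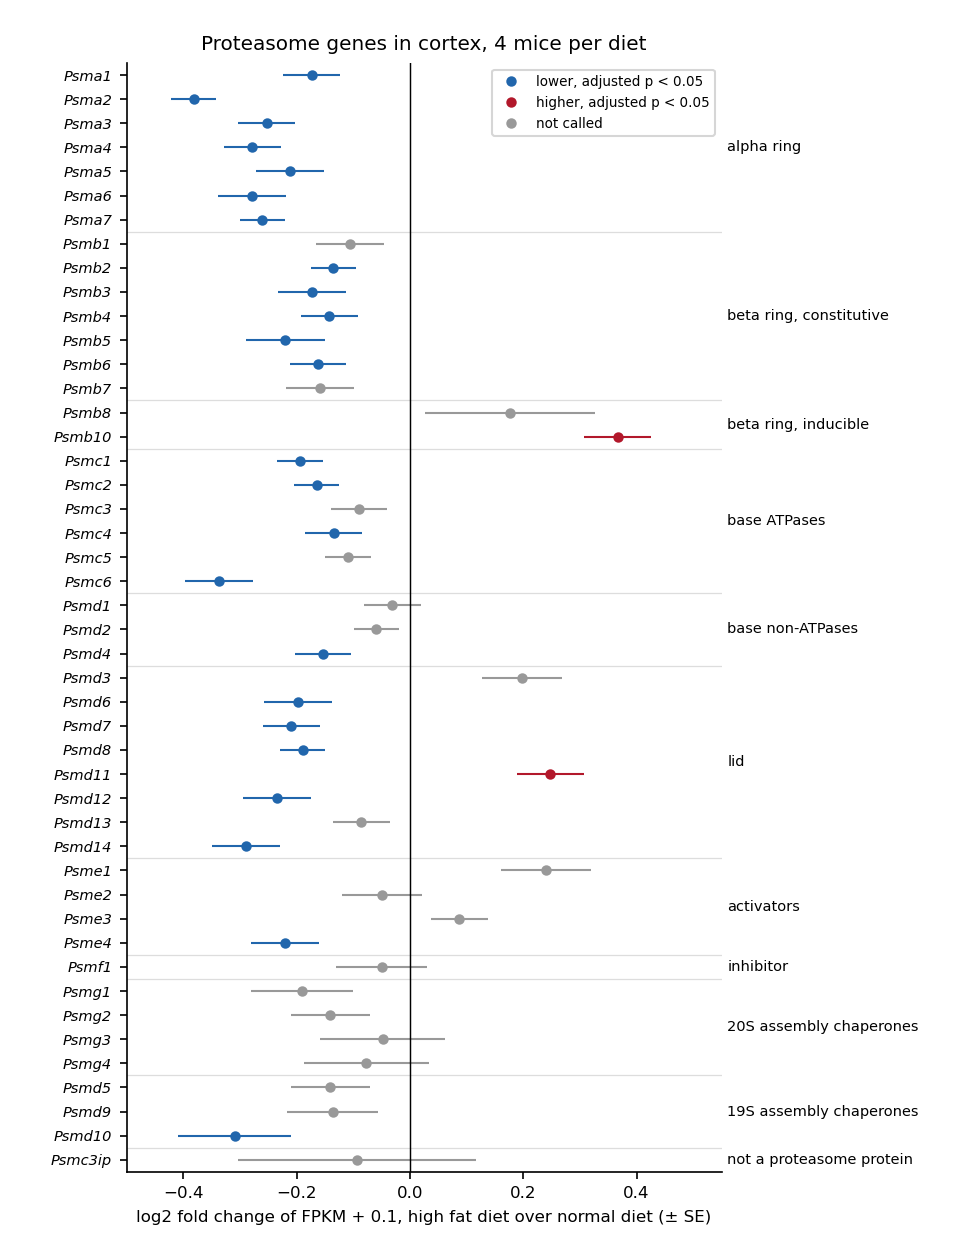
Log2 fold change of FPKM + 0.1 (high fat diet over normal diet, horizontal axis) for each of the 46 genes, ordered by role, with bars of 1 standard error of the limma fit. Blue points (24) fell and red points (2) rose at an adjusted p below 0.05, and grey points (20) did not pass; the alpha ring genes lie furthest to the left as a group and Psmb10 furthest to the right.

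The alpha ring, which closes the ends of the core barrel, was the group in which every gene fell: 7 of 7 were lower, with a median log2 fold change of -0.26. Psma2 had the largest fall of all 46 genes. It measured 29.3, 30.3, 29.5 and 27.7 FPKM across the normal mice and 22.2, 21.8, 22.4 and 23.1 FPKM across the HFD mice. Every HFD mouse was below every normal mouse. The mean went from 29.2 ± 1.09 to 22.4 ± 0.544 (SD), a change of -23.3% and a log2 fold change of -0.38 (SE 0.04, limma adjusted p 0.000775). Psma2 (ENSMUSG00000015671.11) lies on the plus strand of chr13:14613240-14674236 of GRCm38, which is the build of every position given.

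The other alpha genes shared this direction with smaller changes. Psma4 and Psma6 both changed by -0.28 (limma adjusted p 0.00252 and 0.00677), from 55.5 ± 1.41 to 45.8 ± 2.14 FPKM and from 60.5 ± 4.45 to 49.8 ± 1.79 FPKM. Psma7, the alpha gene with the highest level, went from 81.8 ± 1.54 to 68.3 ± 3.31 FPKM (-0.26, limma adjusted p 0.00306), and Psma3 from 70.5 ± 3.92 to 59.1 ± 1.69 FPKM (-0.25, limma adjusted p 0.0051). Each of these passed with any mouse left out. The remaining pair, Psma5 (-0.21, limma adjusted p 0.0226) and Psma1 (-0.17, limma adjusted p 0.0336), passed in 3 of 8 such fits each, with adjusted p up to 0.0647 for Psma5 (without HFD mouse 2) and 0.0932 for Psma1 (without HFD mouse 2). The diets did not overlap for 6 of the 7 genes, the exception being Psma5.

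The summed FPKM of the alpha ring was 401.0, 398.2, 391.5 and 374.9 in normal mice 1 to 4 and 335.3, 325.6, 316.9 and 332.6 in HFD mice 1 to 4. All normal mice lay above all HFD mice, and the mean went from 391 ± 11.7 to 328 ± 8.22, a change of -16.3%. Normal mouse 1, whose cerebellum marker sum of 26.3 was near the high fat diet range, had the highest alpha ring sum and the highest striatum sum. In normal mice 1 to 4 the striatum sums (401.6, 328.5, 313.1 and 214.1) ran in the same order as the alpha ring sums. In HFD mice 1 to 4 they did not (69.8, 70.4, 79.7 and 74.8). Whether the alpha ring followed any marker sum was not tested. HFD mouse 4, with the highest choroid plexus sum (942.3), had an alpha ring sum within the range of its diet. Normal mouse 4 had the lowest striatum sum (214.1), the lowest oligodendrocyte sum (2112.2) and the lowest alpha ring sum of the normal mice, whereas HFD mouse 3 had the highest striatum (79.7) and oligodendrocyte (2029.7) sums of its diet and its lowest alpha ring sum (316.9).

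**Figure D2:**
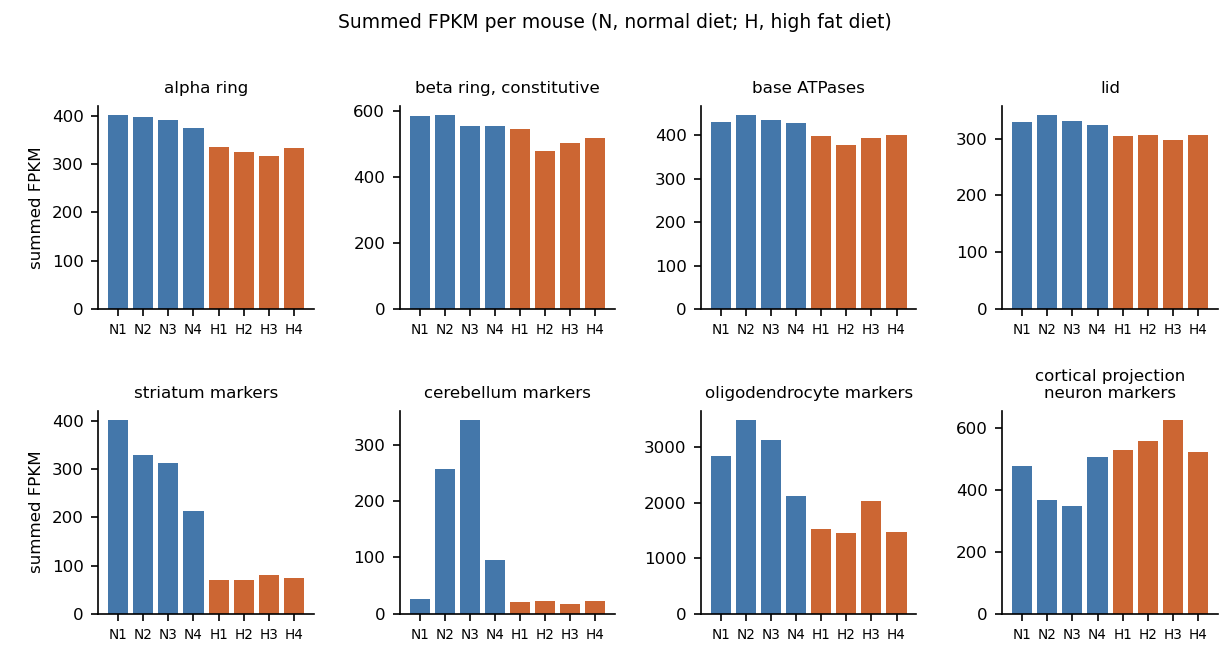
Summed FPKM of each mouse (N1 to N4, normal diet, blue; H1 to H4, high fat diet, orange) for 4 groups of proteasome genes in the upper row and 4 marker lists in the lower row, on axes that start at 0. The 4 alpha ring sums of normal mice (374.9 to 401.0) lie above those of HFD mice (316.9 to 335.3). The sums of each of the 4 marker lists are also apart, higher in HFD mice for cortical projection neurons and lower for the others.

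The constitutive beta ring, which holds the catalytic sites, was lower in 5 of 7 genes, with a median log2 fold change of -0.16. Psmb5, which carries the chymotrypsin-like site, had the largest fall of the ring, with 75.6, 72.8, 68.1 and 68.1 FPKM in normal mice and 66.2, 53.3, 62.9 and 62.4 FPKM in HFD mice. The diets did not overlap, and HFD mouse 2 was the lowest. The mean went from 71.1 ± 3.70 to 61.2 ± 5.53 FPKM (log2 fold change -0.22, SE 0.07, limma adjusted p 0.0363).

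Psmb6, with the caspase-like site, was the most abundant of all 46 genes. It was at 118.3, 124.1, 121.0 and 113.9 FPKM in normal mice and at 115.8, 99.9, 104.3 and 106.8 FPKM in HFD mice. HFD mouse 1 lay above normal mouse 4, so the diets overlapped. The log2 fold change was -0.16 (SE 0.05, limma adjusted p 0.042). Psmb7, with the trypsin-like site, was at 82.3, 81.8, 81.9 and 74.5 FPKM in normal mice and at 76.5, 66.2, 69.6 and 75.0 FPKM in HFD mice. Normal mouse 4 stood apart from the other normal mice and lay within the high fat diet range. The log2 fold change of Psmb7 was -0.16 (SE 0.06) and missed the threshold (limma adjusted p 0.0601), though it passed under median-ratio rescaling (0.0495). With a mouse left out, Psmb7 passed only without normal mouse 4 (0.0327), with adjusted p up to 0.154.

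Of the non-catalytic beta subunits, Psmb2 (-0.14, limma adjusted p 0.027), Psmb3 (-0.17, limma adjusted p 0.0395) and Psmb4 (-0.14, limma adjusted p 0.0433) fell. Psmb1 went from 84.3 ± 3.98 to 78.4 ± 6.37 FPKM without passing (limma adjusted p 0.215). With a mouse left out, Psmb1 passed only without HFD mouse 1 (0.0489), with adjusted p up to 0.408. These calls lay near the threshold, and with a mouse left out Psmb2 passed in 5, Psmb3 and Psmb5 in 3, Psmb6 in 2 and Psmb4 in 1 of 8 fits, with highest adjusted p of 0.0728, 0.104, 0.0865, 0.113 and 0.114. Their log2 fold changes in these fits ran from -0.15 to -0.11 for Psmb2, from -0.20 to -0.13 for Psmb3, from -0.18 to -0.12 for Psmb4, from -0.26 to -0.16 for Psmb5 and from -0.20 to -0.13 for Psmb6. All 5 were lost without normal mouse 2 and without HFD mouse 2. The beta ring sum was 584.7, 588.1, 556.2 and 554.1 in normal mice and 546.5, 480.0, 503.3 and 520.2 in HFD mice, a change of -10.2% without overlap. Psmb5 lies on the minus strand of chr14:54614119-54618022, Psmb6 on the plus strand of chr11:70525367-70527858 and Psmb7 on the minus strand of chr2:38588036-38644087. Of the exon bases of Psmb7, 405 (11.8%) lie opposite exons of Nek6, and pseudogenes of Psmb5, Psmb6 and Psmb7 are annotated, so reads may be split between copies.

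Of the inducible catalytic subunits, Psmb10 rose and Psmb8 did not pass. Psmb10, the inducible counterpart of Psmb7, was at 16.8, 14.7, 15.6 and 17.7 FPKM in normal mice and at 22.0, 20, 20.3 and 21.2 FPKM in HFD mice. All HFD mice were above all normal mice. The mean went from 16.2 ± 1.32 to 20.9 ± 0.907 FPKM, a change of 28.9% and the largest rise of the 46 genes (log2 fold change 0.37, SE 0.06, limma adjusted p 0.00342), and it passed with any mouse left out. Psmb8, the inducible counterpart of Psmb5, was at 1.4, 1.7, 1.2 and 1.4 FPKM in normal mice and at 1.6, 1.3, 1.8 and 1.8 FPKM in HFD mice. Its diets overlapped, and with values near 1 FPKM, rounded to 0.1, a difference was not detectable (log2 fold change 0.18, SE 0.15, limma adjusted p 0.399).

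Psmb10 (ENSMUSG00000031897.9) lies on the minus strand of chr8:105935735-105938444. The span of Psmb10 lies opposite the antisense gene Gm16156 but shares no exon bases with it. Psmb8 lies on the plus strand of chr17:34197721-34201454 in the MHC, and 498 of its exon bases (14.7%) lie opposite the antisense gene Gm20496. The sources used here do not say whether strand was used when reads were counted. The microglia marker sum, from 166.1 to 202.2 in normal and from 176.8 to 188.6 in HFD mice, overlapped between the diets, with 0 of 8 markers past the threshold. In limma with the cerebellum, striatum or oligodendrocyte markers as covariate, neither Psmb10 nor Psmb8 passed, and the log2 fold change of Psmb10 was 0.22 (SE 0.11), 0.14 (SE 0.34) and 0.15 (SE 0.11).

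Ratios within a mouse put both subunits of a site on 1 scale. They carry no test because the genes were chosen with the results known. Psmb10 per 100 FPKM of Psmb7 was 20.4, 18.0, 19 and 23.8 in normal mice and 28.8, 30.2, 29.2 and 28.3 in HFD mice, a ratio of means of 1.43 (1.38 to 1.52 with a mouse left out). Psmb8 per 100 FPKM of Psmb5 was 1.85, 2.34, 1.76 and 2.06 in normal mice and 2.42, 2.44, 2.86 and 2.88 in HFD mice, 1.32 times higher (1.27 to 1.4). The diets did not overlap in the ratio of Psmb10 to Psmb7. For Psmb8 to Psmb5 the highest normal ratio and the lowest HFD ratio were apart by less than the rounding of the values, which allows 2.26 to 2.41 for normal mouse 2 and 2.34 to 2.49 for HFD mouse 1. The constitutive subunit was the more abundant one in every mouse.

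**Figure D3:**
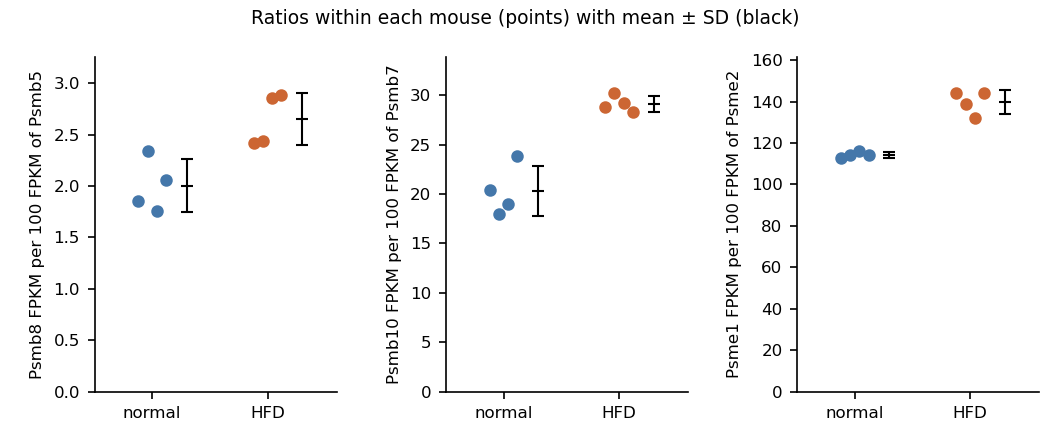
Ratio of FPKM within each mouse (points; normal diet blue, high fat diet orange), with the mean and SD of 4 mice in black, for Psmb8 per 100 Psmb5, Psmb10 per 100 Psmb7 and Psme1 per 100 Psme2. In each panel the points of the HFD mice lie above those of the normal mice, for Psmb8 by less than the rounding of its values allows to tell, with means of 2.65 against 2.0, 29.1 against 20.3 and 140 against 114.

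The ATPase ring of the base was lower in 4 of 6 genes, with a median log2 fold change of -0.15. Psmc6 fell most, with 36.5, 38.4, 36.2 and 35.6 FPKM in normal mice and 29.9, 29.2, 26.0 and 31.1 FPKM in HFD mice. The diets did not overlap, and HFD mouse 3 was the lowest. The mean of Psmc6 went from 36.7 ± 1.21 to 29 ± 2.18 FPKM, a change of -20.9% (log2 fold change -0.34, SE 0.06, limma adjusted p 0.00327). Psmc1 went from 89 ± 2.34 to 77.8 ± 2.61 FPKM (-0.19, limma adjusted p 0.00762) and Psmc2 from 43.2 ± 0.896 to 38.6 ± 0.763 FPKM (-0.16, limma adjusted p 0.0103). These 3 genes passed with any mouse left out.

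Psmc4 passed narrowly (-0.13, limma adjusted p 0.0494) and passed in 0 of the 8 fits with a mouse left out, whose adjusted p ran from 0.052 to 0.117. Psmc3 (-0.09, limma adjusted p 0.165) and Psmc5 (-0.11, limma adjusted p 0.086) did not pass, although the values of Psmc5 did not overlap between diets. Psmc3 and Psmc5 are the ATPases with the highest levels, near 100 FPKM, and 215 exon bases of Psmc3 (8.25%) lie opposite Slc39a13. The ring sum was 430.1, 446.5, 436.3 and 429.3 in normal mice and 398.5, 378.6, 393.0 and 401.5 in HFD mice, a change of -9.79% without overlap. Psmc6 lies on the plus strand of chr14:45329788-45349705.

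Of the other base subunits, the ubiquitin receptor Psmd4 fell. It was at 79.5, 84, 86.2 and 77.2 FPKM in normal mice and at 74.9, 73.9, 69.4 and 75.5 FPKM in HFD mice. The diets did not overlap, though normal mouse 4 and HFD mouse 4 lay close to each other. The log2 fold change was -0.15 (SE 0.05, limma adjusted p 0.0383), and Psmd4 passed in 2 of 8 fits with a mouse left out, those without normal mouse 1 or normal mouse 4, with an adjusted p up to 0.0977. The large scaffold subunits Psmd1 (47.5 ± 2.0 to 46.5 ± 1.67 FPKM, -0.03, limma adjusted p 0.633) and Psmd2 (88.2 ± 3.11 to 84.7 ± 1.54 FPKM, -0.06, limma adjusted p 0.287) did not pass. Psmd4 lies on the minus strand of chr3:95032694-95042614.

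The lid was the group with calls in both directions, 5 of 8 genes lower and 1 higher, with a median log2 fold change of -0.19. Psmd14, the metalloprotease that removes ubiquitin chains, fell most. It was at 55.0, 56.0, 50.6 and 52.2 FPKM in normal mice and at 44.1, 44.6, 39.1 and 47.4 FPKM in HFD mice. Every HFD mouse was below every normal mouse. The mean of Psmd14 went from 53.5 ± 2.49 to 43.8 ± 3.45 FPKM, a change of -18.1% (log2 fold change -0.29, SE 0.06, limma adjusted p 0.00809).

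Psmd11, a lid subunit that contacts the core and steadies the joint of core and cap, rose. It was at 15.1, 16.1, 14.4 and 15.4 FPKM in normal mice and at 18.7, 19.5, 17.9 and 16.5 FPKM in HFD mice. The lowest high fat diet value, HFD mouse 4, lay just above the highest normal value, so the diets did not overlap. The mean of Psmd11 went from 15.2 ± 0.705 to 18.1 ± 1.28 FPKM, a change of 18.8% (log2 fold change 0.25, SE 0.06, limma adjusted p 0.0144). Psmd14 and Psmd11 passed with any mouse left out. Psmd14 lies on the plus strand of chr2:61711694-61800376 and Psmd11 on the plus strand of chr11:80428615-80473248.

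Psmd12 was at 35.3, 41.9, 38.0 and 37.5 FPKM in normal mice and at 31.4, 33.2, 31.3 and 33.6 FPKM in HFD mice, without overlap (-0.24, limma adjusted p 0.0131). Psmd7, the inactive partner of Psmd14, went from 48.1 ± 3.41 to 41.5 ± 1.07 FPKM (-0.21, limma adjusted p 0.0177), Psmd8 from 65 ± 1.81 to 57 ± 2.48 FPKM (-0.19, limma adjusted p 0.0112) and Psmd6 from 40.5 ± 1.89 to 35.4 ± 2.6 FPKM (-0.20, limma adjusted p 0.0322). Psmd12 and Psmd8 passed with any mouse left out, Psmd7 failed only without normal mouse 2 (0.0516), and Psmd6 passed in 2 of 8 fits, with adjusted p up to 0.0752. The other members of the lid did not pass. Psmd3 went from 41.2 ± 1.5 to 47.4 ± 4.74 FPKM (0.20, limma adjusted p 0.0572). With a mouse left out, Psmd3 passed only without HFD mouse 4 (0.00831), with adjusted p up to 0.134. Psmd13 went from 29.2 ± 0.779 to 27.5 ± 1.39 FPKM (-0.09, limma adjusted p 0.192), with 342 exon bases (10.1%) opposite Sirt3. The lid sum was 328.4, 340.9, 330.6 and 323.9 in normal mice and 303.6, 305.6, 297.9 and 305.8 in HFD mice, a change of -8.38%.

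Set side by side, the constitutive core had 12 of 14 genes lower and 0 higher with a summed FPKM of 962 ± 28.6 in normal and 840 ± 34.1 in HFD mice (-12.7%). The cap had 10 of 17 genes lower and 1 higher with sums of 984 ± 20.7 and 901 ± 13.4 (-8.46%). Neither sum overlapped between diets, and whether core and cap differed from each other was not tested. In level, the core genes ranged from 25.8 to 113 FPKM as means of 8 mice, a 4.38-fold range, and the cap genes from 16.7 to 99.5 FPKM, a 5.96-fold range. Psma2 was the lowest of the core and Psmd11 the lowest of the cap.

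**Figure D4:**
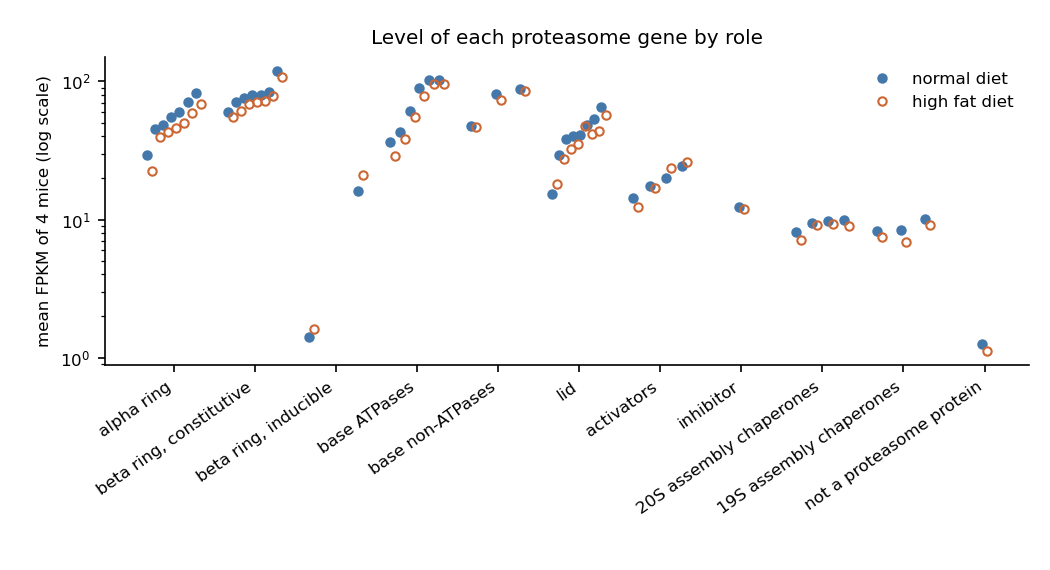
Mean FPKM of 4 mice (log scale) of each gene, grouped by role and ordered by level, for the normal diet (filled blue) and the high fat diet (open orange). The means of a diet lie between 15.2 and 119 FPKM for core and cap genes, between 12.3 and 25.9 FPKM for activators, between 6.83 and 10.1 FPKM for assembly chaperones and at 1.42 and 1.62 FPKM for Psmb8.

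The activators, which bind the core in place of the cap, were lower in 1 of 4 genes and higher in 0, with a median log2 fold change of 0.02. Psme4, a large nuclear activator known from histone degradation, fell. It was at 15.0, 14, 13.5 and 15.0 FPKM in normal mice and at 11.5, 13.1, 11.9 and 12.8 FPKM in HFD mice, without overlap (log2 fold change -0.22, SE 0.06, limma adjusted p 0.022). Psme4 passed in 5 of 8 fits with a mouse left out and missed the threshold without normal mouse 1, HFD mouse 1 or HFD mouse 3, at adjusted p up to 0.0616.

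Psme1 and Psme2 encode the alternating subunits of 1 interferon-inducible ring. Psme1 was at 17.2, 20.9, 21.5 and 19.9 FPKM in normal mice and at 26.0, 23.2, 21 and 23.7 FPKM in HFD mice. Only HFD mouse 3 fell within the normal range. The log2 fold change of Psme1 was 0.24 (SE 0.08) and just missed the threshold (limma adjusted p 0.0519). Psme1 passed in 2 of 8 fits with a mouse left out, without normal mouse 3 (0.0459) or HFD mouse 3 (0.0327). The highest adjusted p of these 8 fits was 0.132. Psme1 also passed with genes of 5 FPKM or more on average alone (0.0473) and after the length correction (0.0368). It did not pass in any other setting, among them the GC correction, the replicate block and the marker covariates. Psme2 was at 15.2, 18.4, 18.5 and 17.5 FPKM in normal mice and at 18.0, 16.7, 15.9 and 16.5 FPKM in HFD mice. The diets overlapped in full (log2 fold change -0.05, SE 0.07, limma adjusted p 0.618), and the near copy Psme2b may share its reads.

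The ratio of Psme1 to Psme2 was looked at after their values were seen and has no test. Psme1 per 100 FPKM of Psme2 was 113, 114, 116 and 114 in normal mice and 144, 139, 132 and 144 in HFD mice, a ratio of means of 1.22 without overlap. Psme3, which forms a nuclear activator ring of its own, went from 24.4 ± 1.11 to 25.9 ± 1.33 FPKM (0.09, limma adjusted p 0.233). Psme1 lies on the plus strand of chr14:55578123-55581529, Psme2 on the minus strand of chr14:55587441-55591113 and Psme4 on the plus strand of chr11:30771726-30880361.

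The inhibitor Psmf1 was at 12.4 ± 1.35 and 11.9 ± 0.236 FPKM (-0.05, limma adjusted p 0.646). The core assembly chaperones Psmg1 (-0.19, limma adjusted p 0.118), Psmg2 (-0.14, 0.149), Psmg3 (-0.05, 0.751) and Psmg4 (-0.08, 0.605) did not pass, with 4 of 4 below 0. With a mouse left out, Psmg1 passed only without normal mouse 1 (0.0369), with adjusted p up to 0.256. Psmg2 passed only without normal mouse 3 (0.0428), with adjusted p up to 0.302. Among the chaperones of cap assembly, Psmd5 (-0.14, limma adjusted p 0.149) and Psmd9 (-0.14, 0.202) did not pass, and 1849 exon bases of Psmd9 (25.5%) lie opposite Gm26745. With a mouse left out, Psmd5 passed only without HFD mouse 4 (0.0445), with adjusted p up to 0.334. Psmd10, also known as gankyrin, was at 7.8, 9.0, 8.5 and 8.4 FPKM in normal mice and at 7.8, 7.0, 5.5 and 7.0 FPKM in HFD mice. The diets met at 7.8 FPKM, and HFD mouse 3 was the lowest. The log2 fold change of Psmd10 was -0.31 (SE 0.10, limma adjusted p 0.0417), and it passed in 2 of 8 fits with a mouse left out, those without normal mouse 1 or HFD mouse 1, with an adjusted p up to 0.103. Psmd10 lies on the minus strand of chrX:140948429-140956728. Psmc3ip, no proteasome gene, averaged 1.25 and 1.12 FPKM (-0.09, limma adjusted p 0.756).

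**Figure D5:**
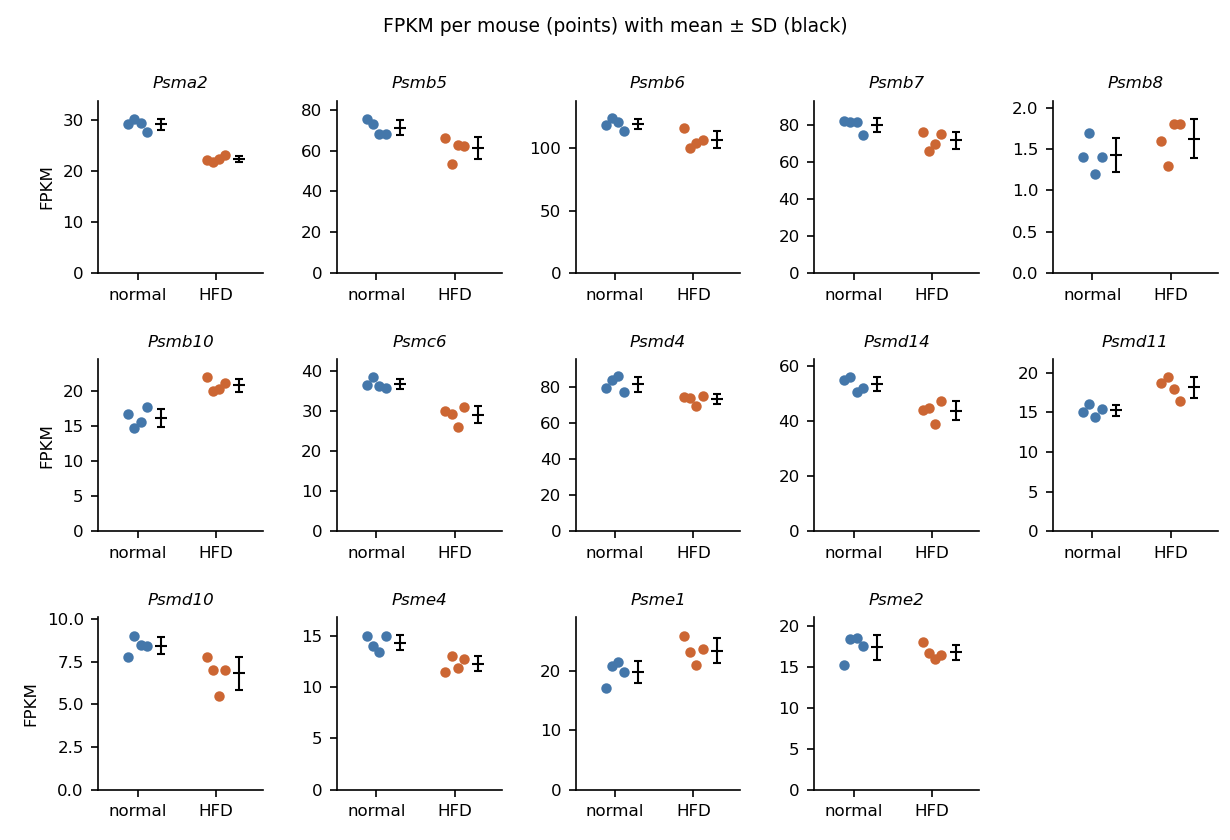
FPKM of each mouse (points; normal diet blue, high fat diet orange) with the mean and SD of 4 mice in black, for 14 proteasome genes, on axes that start at 0. Psma2, Psmc6 and Psmd14 lie lower in all 4 HFD mice, Psmb10 and Psmd11 lie higher in all 4, and Psmb6, Psmb7, Psmb8, Psmd10, Psme1 and Psme2 overlap.

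Genes that work with the proteasome but have other names were counted from lists of partner genes: subunits and assembly factors named otherwise, deubiquitinases and ubiquitin receptors, ubiquitin and its enzymes, the unfoldase p97 with its cofactors, and transcriptional regulators of subunit genes. Of 32 tested genes, 5 were lower and 4 higher, with a median log2 fold change of -0.08, against 15.3% and 17.7% of all genes. Sem1, a small lid subunit, went from 25.2 ± 1.23 to 21.1 ± 0.812 FPKM (-0.26, SE 0.05, limma adjusted p 0.00554). The polyubiquitin gene Ubb went from 350 ± 29.2 to 291 ± 8.03 FPKM (-0.26, SE 0.06, limma adjusted p 0.0127). Higher were Ubqln2, a shuttle factor that brings ubiquitinated proteins to the cap, from 22.8 ± 2.02 to 33.4 ± 0.427 FPKM (0.55, SE 0.06, limma adjusted p 0.000736), and Ubr4, a ubiquitin ligase of the N-degron pathway, from 21.5 ± 0.699 to 28 ± 1.49 FPKM (0.38, SE 0.05, limma adjusted p 0.00114).

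Some partners with a direct tie to the subunit genes did not pass. Pomp, which matures the core, had a log2 fold change of -0.15 (limma adjusted p 0.225) and Adrm1, a ubiquitin receptor of the base, of 0.05 (0.546). Nfe2l1, the factor known to induce subunit genes when the proteasome is inhibited, had a log2 fold change of 0.07 (limma adjusted p 0.293) and Nfe2l2 of -0.11 (0.347). Of the 5 transcriptional regulators tested, 1 was lower and 0 higher, with a median log2 fold change of -0.16. The lower one was Ngly1 (-0.16, limma adjusted p 0.0425), which passed in 1 of 8 fits with a mouse left out. MHC class I presentation uses peptides made by proteasomes, the immunoproteasome among them. Of its 12 tested genes, 3 were lower and 0 higher, against 15.3% and 17.7% of all genes. The lower ones were the chaperones Canx (-0.26, limma adjusted p 0.00336) and Calr (-0.28, limma adjusted p 0.0096) and the light chain B2m, from 78.4 ± 4.74 to 66.7 ± 2.64 FPKM (-0.23, limma adjusted p 0.00989). Among those that did not pass were H2-D1 (-0.30, limma adjusted p 0.0907) and H2-K1 (-0.17, 0.177). Tap2 (0.05, limma adjusted p 0.788), Tapbp (0.12, 0.194) and Tapbpl (0.20, 0.173) did not pass either.

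The promoter windows printed above were searched together with those of the other proteasome genes, 39 of 46 in all, for 6 motifs on both strands. Some genes had several promoters, and a gene was counted when any of them held a match. The ETS site CCGGAAG was found in 15 of 39 proteasome genes (38.5%). It was found in 9.93% of all 27025 genes with a promoter and in 19.2% of the 9411 tested coding genes among them. The CCAAT box (CCAAT) was found in 13 (33.3%, against 41.1% and 42.9%) and the core of the antioxidant response element (TGACNNNGC) in 6 (15.4%, against 14% and 16.9%). The interferon-stimulated response element core was found in 5 (12.8%, against 3.99% and 3.49%), the gamma-activated site (TTCNNNGAA) in 3 (7.69%, against 9.55% and 8.14%) and the nuclear respiratory factor 1 site in 7 (17.9%, against 5.19% and 11.5%). These shares are descriptions without a test, and a match of letters is not a binding site.

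Among the 22 genes that fell and had a promoter, 11 held CCAAT, 8 the ETS site and 5 the antioxidant core. The nuclear respiratory factor 1 site was held by 5, the interferon element by 2 and the gamma-activated site by 0. In the same order, these motifs were found in 42.9%, 19.2%, 16.9%, 11.5%, 3.49% and 8.14% of the tested coding genes. Whether the genes that fell differed from others in these motifs was not tested. In the printed windows, counted from the RefSeq start, Psma2 held the nuclear respiratory factor 1 site at -127 and CCAAT at -54, and Psmc6 held the antioxidant core at -227 on the minus strand and the ETS site at -100. Psmd12 held the antioxidant core at -247 and the ETS site at -17, both on the minus strand. Of the genes that rose, Psmd11 held the ETS site at -11 on the minus strand, and the Psmb10 window held none of the 6 motifs. The inducible Psmb8 held the gamma-activated site and Psme1 the interferon element.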

How the data were processed

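Cortex RNA sequencing of 8 mice (4 per diet, 1 library each) was used. The deposited FPKM were made by the authors with Cuffnorm on GENCODE M17 (GRCm38.p6) from STAR alignments to mm10 of reads cleaned by Trimmomatic, and genes of low FPKM were left out. FastQC was also named. Versions of these tools were not stated. The FPKM are rounded to 0.1 and scaled for depth and length, so the depth is unknown and no counting interval can be given. Their second quantification with Salmon and edgeR was not used here.

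Log2(FPKM + 0.1) was compared with limma 3.58.1 in R 4.3.3 (two-sided, variance trend, Benjamini-Hochberg over 13982 genes that averaged 1 FPKM or more without a 0). A fold change on this scale understates changes of low genes. Tables and plots used Python 3.11.15, numpy 2.4.6, pandas 2.3.3, scipy 1.17.1 and matplotlib 3.10.9. Gene positions came from GENCODE M21 on GRCm38, which is later than M17, and promoters from RefSeq. The fit was also run on simulated data, with noise drawn separately for each gene and mouse and without the marker differences seen here. The outcome of that run is not reported here. The members, gene lists and motifs were chosen with earlier results of these data known. Values of every mouse were given for the catalytic subunits, Psme1, Psme2 and the largest called rise and fall of each role group, plus Psmd12 because its promoter is shown. Of the partner and class I genes, those with the 2 lowest adjusted p each way were named. Pomp, Adrm1, Nfe2l1, Nfe2l2, Ngly1, B2m, H2-D1, H2-K1, Tap2, Tapbp and Tapbpl were added after their values were seen. Alternatives were other added constants, filters, scalings, no trend, a replicate block, length and GC corrections (loess, span 0.5), marker covariates, and each mouse left out.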

Additional observations from a re-analysis of the deposited data

Results flagged for a closer look

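Values per mouse were tested for a mouse far from the other 3 of its diet, by the gap to the nearest mouse over the whole range, in 96 groups (46 genes and the 2 ratios of inducible to constitutive subunits in each diet). In 4 groups the ratio was above the critical value of Dixon's test at 95%, and chance gives about 1 in 20 groups. Psmb1 was at 87.9 FPKM in HFD mouse 1, above the other HFD mice (ratio 0.847), and the limma call for Psmb1 changed without that mouse. Psmb7 was at 74.5 FPKM in normal mouse 4, below the other normal mice (0.936), and its call changed without that mouse too. Psmd13 was at 29.6 FPKM in HFD mouse 3, above the others (0.867). Psmc3ip was at 1.2 FPKM in HFD mouse 3 and at 1.1 FPKM in the other 3 mice (1.0), which is 1 step of the rounding.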

How the results depend on the processing

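The counts of 24 lower and 2 higher genes were the same with an added constant of 1 or 0.01 and without the filter, and stayed within 1.5 times with a minimum mean FPKM of 5, median-ratio rescaling, quantile normalization, and length and GC corrections. The lower count was 9 with equal sums of FPKM (9.79% of all genes lower) and 14 without the variance trend (13.7%). With the replicate block it was 14 (2 higher), with 11.1% of all genes lower. The labels do not say that the numbers pair the mice. Over all genes tested, the deviations of same-numbered mice from their diet means correlated at -0.109 to -0.0275, with 0 of 8 mice closest to their own number. This check cannot exclude a pairing. With each mouse left out, lower counts ran from 13 to 21, while 10.5% to 15.3% of all genes were lower. Higher counts ran from 2 to 3, genes over 1.5-fold stayed at 0, and the median log2 fold change ran from -0.17 to -0.13. With cerebellum, striatum or oligodendrocyte markers as covariate, counts were 0 lower and 0 higher, and the median was -0.125, -0.021 and -0.115. The cause of these changes was not tested. The planned ratio of Psmb9 to Psmb6 was not run because Psmb9 had no row.

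Log2 fold changes that changed sign follow. With the cerebellum markers they were 0.01 for Psmd1, 0.18 for Psme2, 0.24 for Psmg3 and 0.66 for Psmc3ip. With the striatum markers they were 0.10 for Psma1, 0.23 for Psma3, 0.32 for Psma6, 0.08 for Psmb1, 0.28 for Psmb3, 0.04 for Psmb4, 0.31 for Psmb5, 0.10 for Psmb6, 0.32 for Psmb7, 0.29 for Psmd1, 0.22 for Psmd2, 0.01 for Psmd4, 0.12 for Psmd13, -0.12 for Psme1, -0.12 for Psme3, 0.10 for Psmg2, 0.12 for Psmg4 and 0.16 for Psmd9. With the oligodendrocyte markers they were 0.02 for Psmc5, 0.05 for Psmd1, 0.01 for Psmd2, 0.05 for Psmd13, 0.11 for Psmg4 and 0.37 for Psmc3ip. With a mouse left out, Psmg3 ran from -0.14 to 0.03 and Psmc3ip from -0.27 to 0.06 (highest without normal mouse 2), and Psmf1 from -0.12 to 0.00 (highest without normal mouse 4). The standard errors of the striatum fit were 0.2 to 0.56 for these genes.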
